A study of Homo sapiens with 6 samples.

Results

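The genes described here encode 10 surface proteins by which a tumour cell is read by T cells, natural killer (NK) cells and macrophages. They were taken by symbol from a fixed list, and all 10 were found among the 17335 genes of the deposited table. They are CD274 and CD276 of the B7 family, PVR and NECTIN2 of the nectin family, CD47, and the NKG2D ligand genes MICA, MICB, ULBP1, ULBP2 and ULBP3. RNA was sequenced from A549, an established human lung adenocarcinoma line of epithelial origin, given a compound abbreviated BRQ (3 libraries) or the solvent DMSO (3 libraries). According to its title the series studies the inhibition of DHODH, which catalyses a step of de novo pyrimidine synthesis, and the inhibitor is assumed to be BRQ. The labels give no dose, exposure time or other treatment, and all cultures were of the same line in the same serum-containing medium. The labels do not state whether the 3 libraries of a group stem from different cultures, and the p-values below therefore reflect only how far these libraries scatter, which may be technical.

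T cells carry inhibitory receptors that dampen killing when they meet their ligand. PD-L1, the product of CD274, engages PD-1, and B7-H3, the product of CD276, acts on T cells through a receptor that is less well defined. PVR and NECTIN2 bind both the inhibitory receptors TIGIT, CD96 or PVRIG and the activating receptor DNAM-1, CD47 tells macrophages through SIRPA not to engulf the cell, and MICA, MICB and the ULBP proteins, which resemble MHC class I and are induced by cellular stress, activate NK cells through NKG2D.

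Values are FPKM, the authors' fragment counts scaled to gene length and library total, so that levels of different genes can be set side by side. Library totals worked back from the steps between low FPKM values were 32195353 to 34908895 reads in BRQ and 27789225 to 29644462 in DMSO, and the members rested on 308 to 9481 reads per library. All 8 genes listed as epithelial markers were detected but at unlike levels. KRT18 had 645 to 696 FPKM in BRQ and 449 to 459 FPKM in DMSO. EPCAM had 2.87 to 4.44 FPKM in BRQ and 0.582 to 0.997 FPKM in DMSO. Of the 8, KRT7 fell, as did the N-cadherin gene CDH2, which is usually taken as a mesenchymal rather than an epithelial marker. The other 6 rose, KRT19 most (30.2 FPKM on average in BRQ and 3.62 FPKM in DMSO). By contrast the leukocyte marker PTPRC reached at most 0.0114 FPKM and the alveolar type 2 marker SFTPC at most 0.0741 FPKM in any library. Of 8 alveolar type 2 markers 3 reached 0.5 FPKM in any library, namely ABCA3, NAPSA and LAMP3. ABCA3 had 6.85 to 7.35 FPKM in BRQ and 6.30 to 7.28 FPKM in DMSO, above EPCAM in both groups. NAPSA reached at most 2.45 FPKM and LAMP3 at most 1.80 FPKM. The alveolar origin named in the labels is thus carried by few of the 8. The BRQ libraries listed fewer genes at 0 (1091 to 1173, against 2400 to 2417 in DMSO). Markers of other cell types had higher sums in BRQ, and not all of them were low. For the 6 of 10 listed T and NK cell genes in the table the sums were 0.323 to 0.650 FPKM in BRQ and 0.00839 to 0.0948 FPKM in DMSO. Of these 6, 3 were at 0 in every DMSO library. PRF1 was the highest, at 0.309 to 0.523 FPKM in BRQ and at most 0.0576 FPKM in DMSO. For 8 of 9 monocyte and macrophage genes, of which 2 were at 0 in every DMSO library, the sums were 2.75 to 2.89 FPKM in BRQ and 0.928 to 1.31 FPKM in DMSO. For 3 of 4 B cell genes, of which 2 were at 0 throughout DMSO, they were 1.12 to 1.28 FPKM in BRQ and 0.0356 to 0.137 FPKM in DMSO. For 4 of 5 fibroblast genes, of which 1 was at 0 throughout DMSO, they were 4.84 to 5.04 FPKM in BRQ and 1.496 to 1.94 FPKM in DMSO, and for 4 of 5 endothelial genes, of which 1 was at 0 throughout DMSO, 0.186 to 0.267 FPKM in BRQ and 0.00617 to 0.0810 FPKM in DMSO. What part these markers, the depth and the number of genes at 0 have in the results below was not tested.

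Of the 10 ligand genes, 7 rose in BRQ (CD274, CD276, CD47, MICA, MICB, ULBP1 and ULBP2), 1 fell (NECTIN2) and 2 were not called (PVR and ULBP3). A gene was called at a Benjamini-Hochberg adjusted p under 0.05 in limma, a linear model on log2(FPKM + 0.5) fitted over all 12258 genes that passed the filter on low values. By that rule 79.7% of all genes tested were called, 44.3% higher and 35.4% lower in BRQ, so that 8 called of 10 is close to the background. The median log2 fold change, BRQ over DMSO, was 0.34 for the members and 0.07 for all genes tested. At least 2-fold rises were seen for 1 member, MICB, against 10.3% of all genes, and at least 2-fold falls for 0 members, against 5.12%. The 3 BRQ and 3 DMSO values did not overlap for 8 members, 7 higher and 1 lower, against 81.4% of all genes in either direction, while 44.9% of all genes were higher and 36.5% lower without overlap. Log2 fold changes ran from -0.42 for NECTIN2 to 1.02 for MICB, and 90.1% of tested genes had a lower value than MICB. Each member exceeded 3 FPKM in every library and so passed the filter in both groups. In RNA from bulk cultures, fewer cells with a transcript and less of it per cell cannot be told apart.

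**Figure D1:**
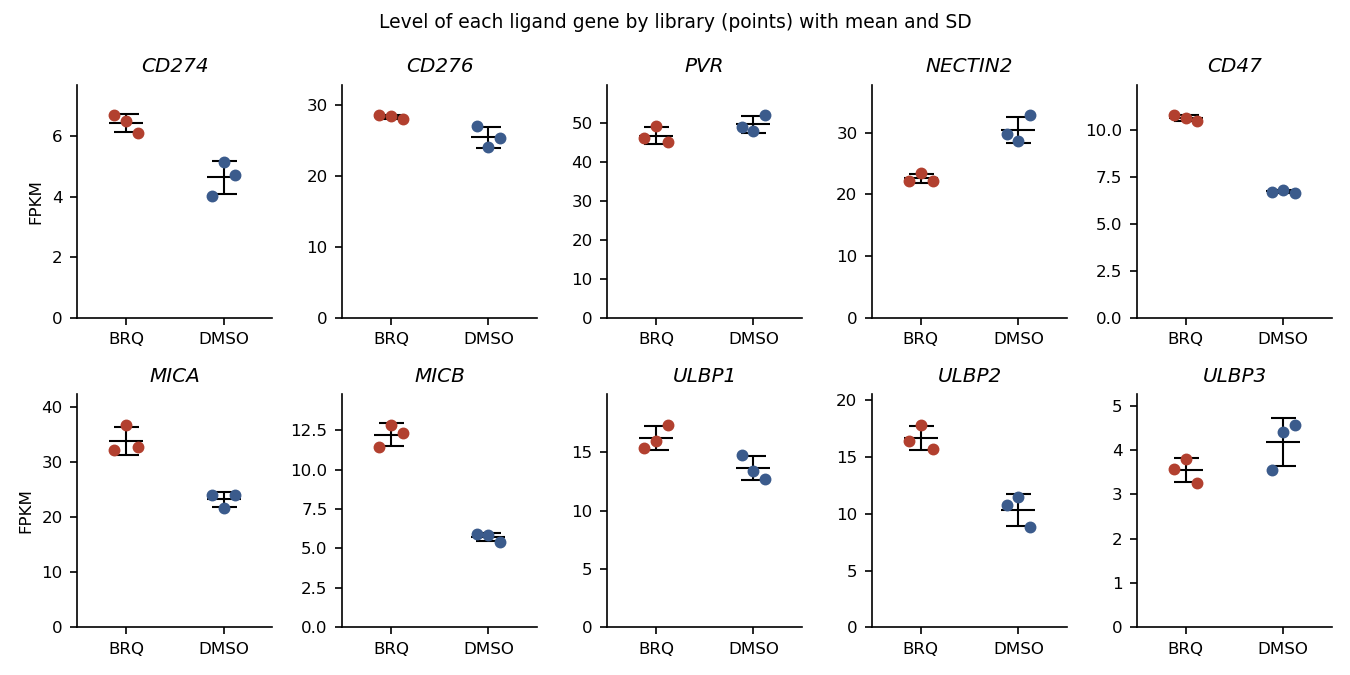
FPKM of the 10 ligand genes in each library (points), with the mean and SD of 3 BRQ libraries on the left and 3 DMSO libraries on the right of each panel; each vertical axis starts at 0. The groups are apart for every gene except PVR and ULBP3, and NECTIN2 is the gene whose BRQ points all lie below its DMSO points.

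The promoters of 5 genes are shown first, because MICA and MICB are close relatives that rose together, because the CD274 window holds letters that match interferon response elements, and because ULBP2 and its relative RAET1L moved in opposite directions. They are the 250 bases before the transcript start in RefSeq's GRCh38.p14 promoter table, which matched all 10 members. They lie at chr6:31403345-31403594, chr6:31497895-31498144, chr9:5450292-5450541 and chr6:149941764-149942013 on the plus strand and chr6:150025533-150025782 on the minus strand. The starts used for MICA and MICB lie inside the RefSeq gene intervals, which begin further upstream. Capitals mark matches, on either strand, to any of 9 motifs. These were a heat shock element (GAANNTTC), an interferon regulatory factor element (GAAA, 2 bases of any kind, GAAA), a gamma-activated site (TTCNNNGAA), an AP-1 element (TGANTCA), a cyclic AMP response element (TGACGTCA), a GC box (GGGCGG), an E2F element (TTTNGCGC), a hypoxia response core (ACGTG) and a TATA box (TATAAA).
MICA: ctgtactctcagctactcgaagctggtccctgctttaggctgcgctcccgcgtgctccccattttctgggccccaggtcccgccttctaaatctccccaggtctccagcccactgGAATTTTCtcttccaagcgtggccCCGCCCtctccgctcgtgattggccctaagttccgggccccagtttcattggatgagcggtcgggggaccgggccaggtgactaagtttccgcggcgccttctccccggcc
MICB: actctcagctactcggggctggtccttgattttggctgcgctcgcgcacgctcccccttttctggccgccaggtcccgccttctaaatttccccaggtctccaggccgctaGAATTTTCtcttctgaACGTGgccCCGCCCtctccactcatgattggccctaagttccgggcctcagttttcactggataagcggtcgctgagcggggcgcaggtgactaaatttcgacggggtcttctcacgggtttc
CD274: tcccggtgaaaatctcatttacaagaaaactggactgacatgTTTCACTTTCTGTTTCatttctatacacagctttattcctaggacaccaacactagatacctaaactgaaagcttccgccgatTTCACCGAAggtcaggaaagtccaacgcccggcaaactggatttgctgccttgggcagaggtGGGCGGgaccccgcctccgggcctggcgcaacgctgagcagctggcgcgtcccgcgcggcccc
ULBP2: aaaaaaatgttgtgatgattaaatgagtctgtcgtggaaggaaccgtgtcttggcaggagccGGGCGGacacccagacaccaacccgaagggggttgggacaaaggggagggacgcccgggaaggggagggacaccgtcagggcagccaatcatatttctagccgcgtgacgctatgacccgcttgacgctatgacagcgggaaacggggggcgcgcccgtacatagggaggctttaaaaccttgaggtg
RAET1L: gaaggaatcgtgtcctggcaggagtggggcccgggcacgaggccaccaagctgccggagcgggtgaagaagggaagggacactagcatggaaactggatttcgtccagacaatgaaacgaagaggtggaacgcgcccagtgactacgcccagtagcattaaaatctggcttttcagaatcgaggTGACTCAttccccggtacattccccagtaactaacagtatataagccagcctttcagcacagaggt

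MICA and MICB shared 210 identical bases in an alignment of 254 columns (82.7%), and each held GAATTTTC, which matches the heat shock element, with its first base at -135 in MICA and at -139 in MICB, counted from the start. That motif was found in 5.85% of the same windows of 27305 RefSeq genes, and among the 10 members in MICA and MICB alone. CD274 had matches to the interferon regulatory factor element at -208 and -202, which overlap each other, and a gamma-activated site at -125. Of all windows 3.07% held the interferon element and 6.78% the gamma-activated site. MICB also held the hypoxia response core (18.7%). MICA, MICB, CD274 and ULBP2 held a GC box (42.3% of all windows), and RAET1L held an AP-1 element (6.60%). A match is a description of letters and does not show that a factor binds there.

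Of the B7 family genes, CD274 rose and CD276 rose slightly. CD274 (PD-L1, chromosome 9, 5450542 to 5470554, GRCh38.p14) had 6.71, 6.50 and 6.11 FPKM in BRQ, against 4.04, 5.15 and 4.72 FPKM in DMSO. All BRQ libraries lay above all DMSO libraries, and the DMSO libraries differed more among themselves. The means were 6.44 ± 0.304 FPKM in BRQ and 4.64 ± 0.562 FPKM in DMSO (SD, n = 3 each). The ratio was 1.39 and the log2 fold change 0.44 (SE 0.08; limma adjusted p = 0.000739). CD274 rested on 421 to 828 reads per library. It was among the less abundant members, with 39.5% of tested genes below it in mean FPKM.

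CD276 (B7-H3, chromosome 15, 73683944 to 73714514) had 28.6, 28.4 and 28.0 FPKM in BRQ, against 27.0, 24.1 and 25.3 FPKM in DMSO. The groups did not overlap, but the lowest BRQ library and the highest DMSO library were close. Its log2 fold change was 0.15 (SE 0.05, limma adjusted p = 0.0105), and the call ended when libraries were scaled by trimmed means (log2 fold change 0.08, limma adjusted p = 0.136) or by quantile normalization (0.10, limma adjusted p = 0.0720); over all alternatives the adjusted p ran from 0.00235 to 0.136. Within a library CD274 amounted to 0.235, 0.229 and 0.218 of the CD276 level in BRQ and to 0.149, 0.214 and 0.187 of it in DMSO. PDCD1LG2, which encodes the other PD-1 ligand, PD-L2, and neighbours CD274, had 1.32, 1.30 and 1.49 FPKM in BRQ, against 1.01, 0.935 and 0.652 FPKM in DMSO. It rose by 0.46 on the log2 scale (limma adjusted p = 0.00448; 0.00332 to 0.150 over the alternatives), and it was named after its values were seen. The ratio of CD274 to PDCD1LG2 overlapped between groups, at 5.07, 4.99 and 4.11 in BRQ and 3.99, 5.51 and 7.23 in DMSO.

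The nectin family members parted. PVR (CD155, chromosome 19, 44643910 to 44666162) was the most abundant member in both groups, with 46.2, 49.2 and 45.0 FPKM in BRQ, against 49.0, 47.8 and 52.1 FPKM in DMSO. The groups overlapped, and the log2 fold change was -0.08 (95% interval -0.18 to 0.01, limma adjusted p = 0.104). PVR was called lower under trimmed-mean scaling (log2 fold change -0.16, adjusted p = 0.0106 in limma), quantile normalization (-0.17, 0.00451) and limma-voom on recovered reads (-0.09, 0.0312), and without BRQ replicate 2 (-0.12, 0.0306), while the adjusted p ran up to 0.341 under other alternatives.

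NECTIN2 (CD112, chromosome 19, 44846297 to 44889223) had 22.2, 23.4 and 22.1 FPKM in BRQ, against 29.8, 28.7 and 32.9 FPKM in DMSO. Every BRQ library lay below every DMSO library. The means were 22.6 ± 0.760 FPKM in BRQ and 30.4 ± 2.17 FPKM in DMSO (SD, n = 3 each). On the log2 scale NECTIN2 fell by 0.42 (SE 0.05, limma adjusted p = 3.24e-05). The PVR level was 2.08, 2.10 and 2.04 times that of NECTIN2 in the BRQ libraries, against 1.65, 1.67 and 1.59 times in the DMSO libraries. These ratios did not overlap (two-sided exact permutation p = 0.1, the smallest that 3 against 3 libraries allow; Benjamini-Hochberg adjusted 0.122 over 11 sums and ratios). The PVR interval overlaps CEACAM19 on its own strand and 2 non-coding RNAs on the other strand in GENCODE release 29, and NECTIN2 overlaps an antisense RNA. No source used here tells if strand was used in counting, so reads of such partners cannot be told apart.

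CD47 (chromosome 3, 108043091 to 108091031), the SIRPA ligand, rose, with little spread between libraries of a group. It had 10.8, 10.7 and 10.5 FPKM in BRQ, against 6.73, 6.83 and 6.64 FPKM in DMSO, resting on 1895 to 3711 reads per library. The gap between the groups was far wider than the spread within either. Means were 10.7 ± 0.166 FPKM in BRQ and 6.73 ± 0.0946 FPKM in DMSO (SD, n = 3 each). The ratio was 1.58 and the log2 fold change 0.63 (SE 0.05; limma adjusted p = 9.34e-07). QPCTL, the enzyme that modifies the CD47 N-terminus for SIRPA binding, had 4.49 ± 0.288 FPKM in BRQ and 2.06 ± 0.135 FPKM in DMSO (log2 fold change 0.96, limma adjusted p = 1.22e-06); it was named after its values were seen.

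The NKG2D ligand genes rose in 4 of 5 cases (all genes tested: 44.3%), and ULBP3 was not called. MICB (chromosome 6, 31494918 to 31511124), a stress-induced MHC class I chain-related gene, had 11.4, 12.8 and 12.3 FPKM in BRQ, against 5.93, 5.83 and 5.44 FPKM in DMSO. Every BRQ library lay well above every DMSO library. Means were 12.2 ± 0.728 FPKM in BRQ and 5.73 ± 0.259 FPKM in DMSO (SD, n = 3 each). The ratio was 2.13 and the log2 fold change 1.02 (SE 0.06; limma adjusted p = 1.16e-07).

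MICA (chromosome 6, 31400711 to 31415315), its neighbour and closest relative in the MHC region, had 32.3, 36.9 and 32.7 FPKM in BRQ, against 24.1, 21.7 and 24.02 FPKM in DMSO. The groups did not overlap, and BRQ replicate 2 was the highest. The log2 fold change was 0.53 (SE 0.06, limma adjusted p = 1.25e-05). The ratio of MICB to MICA within a library was 0.353, 0.348 and 0.377 in BRQ and 0.246, 0.268 and 0.226 in DMSO, without overlap (two-sided exact permutation p = 0.1, the smallest possible; adjusted 0.122). MICB thus gained on MICA, although MICA stayed the more abundant. None of the 100-base windows of either gene's annotated transcripts occurred in a transcript of another gene. Both loci are highly variable between people and cell lines, and whether reads that differ from the reference were lost in alignment was not tested. MICA also overlaps the non-coding gene HCP5 on its own strand.

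The ULBP genes lie in a cluster on the long arm of chromosome 6 and encode relatives of MICA that are anchored in the membrane by a lipid. ULBP2 (149942014 to 149949235) had 16.4, 17.9 and 15.7 FPKM in BRQ, against 10.8, 11.5 and 8.80 FPKM in DMSO, without overlap. Its log2 fold change was 0.67 (SE 0.09, limma adjusted p = 4.71e-05). ULBP1 (149963943 to 149973715) had 15.4, 15.9 and 17.3 FPKM in BRQ, against 14.7, 13.4 and 12.7 FPKM in DMSO, again without overlap but with a narrow gap. Its log2 fold change was 0.24 (SE 0.06, limma adjusted p = 0.00489).

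ULBP3 (150061053 to 150069121) was the least abundant member in both groups. It had 3.58, 3.79 and 3.26 FPKM in BRQ, against 3.56, 4.402 and 4.57 FPKM in DMSO, and the groups overlapped. The log2 fold change was -0.21 (95% interval -0.42 to 0.01, limma adjusted p = 0.0719). It was called lower under trimmed-mean scaling (-0.27, adjusted p = 0.0257 in limma) and quantile normalization (-0.28, 0.0235), and without DMSO replicate 1, the lowest of its group (-0.30, 0.00941), and the adjusted p ran up to 0.227 under other alternatives. ULBP2 amounted to 4.59, 4.71 and 4.82 times ULBP3 in BRQ and to 3.02, 2.61 and 1.92 times in DMSO.

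**Figure D2:**
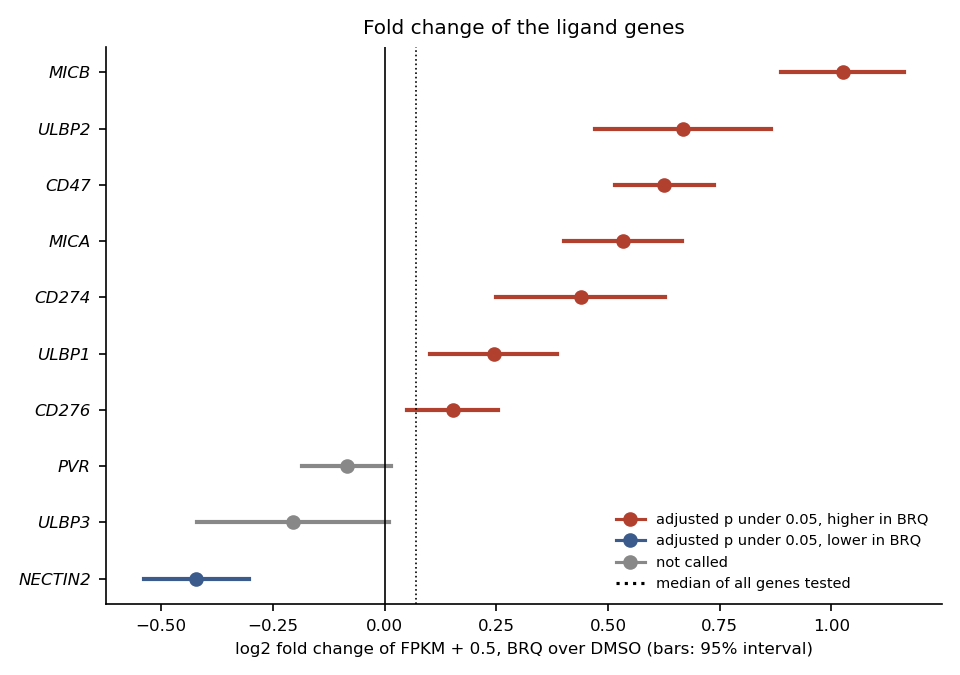
Log2 fold change of FPKM + 0.5, BRQ over DMSO, for the 10 ligand genes, with 95% intervals from limma; the dotted line is the median of all genes tested (0.07). MICB stands at 1.02 and NECTIN2 at -0.42, and the intervals of PVR and ULBP3 include 0.

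The remaining genes that encode NKG2D ligands did not all move with the members. RAET1L (chromosome 6, 150018334 to 150025532), which encodes ULBP6, fell to 6.34, 7.52 and 6.92 FPKM in BRQ, against 33.8, 38.2 and 36.2 FPKM in DMSO. It fell by 2.30 on the log2 scale (SE 0.07, limma adjusted p = 7.64e-10), and this was the largest change in the list of other NK cell ligands. RAET1E, which encodes ULBP4, had 3.22 ± 0.173 FPKM in BRQ and 1.19 ± 0.0287 FPKM in DMSO, and RAET1G, which encodes ULBP5, had 3.10 ± 0.658 FPKM in BRQ and 1.90 ± 0.192 FPKM in DMSO (SD, n = 3 each). Both rose (log2 fold changes 1.13 and 0.57, limma adjusted p = 3.81e-07 and 0.00225); they were named after their values were seen.

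RAET1L made up 6.96%, 7.41% and 7.29% of the summed FPKM of the 8 genes in BRQ, against 35.2%, 39.0% and 38.1% in DMSO, where it was the most abundant of them. The share of MICA and MICB was 48.0%, 49.0% and 47.5% in BRQ and 31.3%, 28.1% and 31.0% in DMSO. The sum over the 5 members was 79.1, 87.3 and 81.4 FPKM in BRQ and 59.1, 56.9 and 55.6 FPKM in DMSO. Over all 8 genes it was 91.1, 101.5 and 94.9 FPKM in BRQ and 96.1, 98.0 and 94.99 FPKM in DMSO, and the groups overlapped (mean 95.8 FPKM in BRQ and 96.3 FPKM in DMSO, two-sided exact permutation p = 0.8). The summed means thus differed by less than the spread between libraries, while the shares of RAET1L and of MICA with MICB did not overlap. ULBP2 amounted to 2.59, 2.37 and 2.27 times RAET1L in BRQ and to 0.318, 0.301 and 0.243 of it in DMSO (two-sided exact permutation p = 0.1, the smallest possible; adjusted 0.122). ULBP2 and RAET1L share sequence, as 11.8% of the 100-base windows of each occurred in the other, so reads may have been divided between them. RAET1E shares 30.9% of its windows with an overlapping read-through gene.

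**Figure D3:**
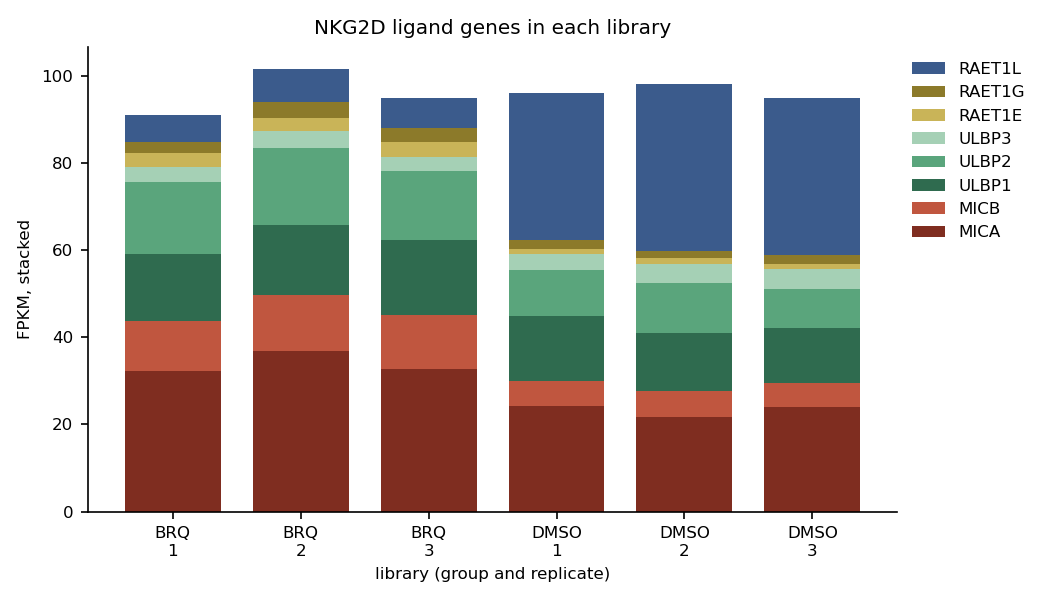
Stacked FPKM of the 8 NKG2D ligand genes in each library, 3 BRQ libraries on the left and 3 DMSO libraries on the right. The bars are of similar height (91.1 to 101.5 FPKM in BRQ and 94.99 to 98.0 FPKM in DMSO), while the RAET1L segment at the top is smaller in BRQ and the MICA and MICB segments at the bottom are larger.

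The order of the members by level changed between the groups at several places. In BRQ it ran PVR, MICA, CD276, NECTIN2, ULBP2, ULBP1, MICB, CD47, CD274 and ULBP3, and ULBP2 and ULBP1 were the only neighbours whose ranges over 3 libraries overlapped. In DMSO it ran PVR, NECTIN2, CD276, MICA, ULBP1, ULBP2, CD47, MICB, CD274 and ULBP3, with overlapping ranges for CD276 and MICA and for CD274 and ULBP3. MICA therefore stood above NECTIN2 and CD276 in every BRQ library, and below NECTIN2 in every DMSO library.

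The genes most like a member were found by the Euclidean distance between log2 profiles over the 6 libraries, each centred on its own mean. Among the nearest to CD274 were MRPL41, a mitochondrial ribosomal protein gene (distance 0.0885), and FAM3C, a secreted protein gene (0.121). Nearest to MICB, the member with the largest change, were GGT1, a gamma-glutamyltransferase (0.0602), B3GLCT, a glucosyltransferase (0.0723), and LRRC8A, a subunit of the volume-regulated anion channel (0.0848).

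Other genes that present signals to T cells moved in both directions. Of 28 listed B7, TNF superfamily and related genes 16 passed the filter. Of these 10 rose (all genes tested: 44.3%), 5 fell (35.4%) and 1 was not called. Their median was 0.64 on the log2 fold change scale. The largest rises were those of TNFSF9, the ligand of the co-stimulatory receptor CD137 (19.0 ± 0.755 FPKM in BRQ and 4.399 ± 0.781 FPKM in DMSO, SD, n = 3 each), and of VSIR, which encodes the checkpoint protein VISTA (3.80 ± 0.247 FPKM in BRQ and 0.733 ± 0.175 FPKM in DMSO). CEACAM1, an adhesion molecule and checkpoint ligand, and CD70, the ligand of CD27, followed with log2 fold changes of 1.64 and 1.09. The 5 that fell were NCR3LG1 (6.32 ± 0.313 FPKM in BRQ and 10.8 ± 0.626 FPKM in DMSO) and the butyrophilin genes BTN2A1, BTN2A2, BTN3A1 and BTN3A3. All 5 were named after their values were seen. NCR3LG1 encodes B7-H6, a B7 family ligand of the NK cell receptor NKp30. It was counted in this list and not among the NK cell ligands below. BTN2A1 and BTN3A1 take part in the sensing of phosphoantigens by gamma delta T cells. NT5E was among those that rose (log2 fold change 0.15, limma adjusted p = 0.0276), but its groups overlapped. Its call was lost under several alternatives, with a limma adjusted p of up to 0.218. NT5E, too, was named after its values were seen.

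Of 19 listed other ligands and adhesion partners of NK cells 15 passed the filter. Among these 10 rose (all genes tested: 44.3%), 3 fell (35.4%) and 2 were not called (median 0.43). Besides RAET1L, the largest changes were rises of NECTIN4, a nectin that binds TIGIT (4.74 ± 0.426 FPKM in BRQ and 0.717 ± 0.0546 FPKM in DMSO), of NECTIN1, a cell adhesion nectin (4.21 ± 0.387 FPKM in BRQ and 1.26 ± 0.285 FPKM in DMSO), and of ICAM1, the ligand of the integrin LFA-1 (31.3 ± 1.27 FPKM in BRQ and 11.4 ± 0.134 FPKM in DMSO; SD, n = 3 each). The log2 fold changes of NECTIN4 and NECTIN1 were 2.10 and 1.43, against -0.42 for NECTIN2. HLA-E, whose product is read by the inhibitory NK receptor NKG2A, had 70.8 ± 0.922 FPKM in BRQ and 49.1 ± 0.348 FPKM in DMSO (log2 fold change 0.52), and was named after its values were seen. CLEC2D, which encodes a ligand of the NK receptor CD161, passed the filter without DMSO replicate 3, in which it was below 0.5 FPKM. It was among those that rose (limma adjusted p = 0.0488), but its groups overlapped. The call was lost under several alternatives, with a log2 fold change of 0.02 under quantile normalization (limma adjusted p = 0.927). It was named after its values were seen.

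**Figure D4:**
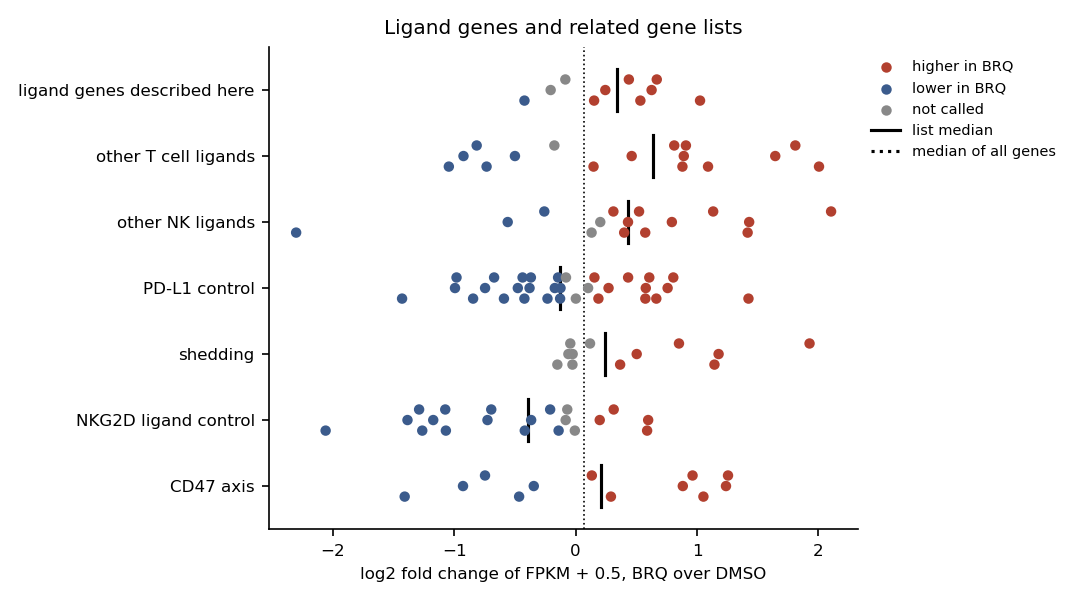
Log2 fold change of FPKM + 0.5, BRQ over DMSO, of each gene tested (points) in the ligand group and the 6 related lists; black bars are list medians and the dotted line is the median of all genes tested. Medians run from -0.39 in the NKG2D ligand control list to 0.64 in the list of other T cell ligands.

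Genes that set PD-L1 level were split. Of 31 genes of interferon gamma signalling, transcription and PD-L1 stability 11 rose (all genes tested: 44.3%), 17 fell (35.4%) and 3 were not called (median -0.13). The kinase JAK2, which carries the interferon gamma signal and lies on chromosome 9 near CD274, had 3.22 ± 0.107 FPKM in BRQ and 9.52 ± 0.612 FPKM in DMSO (SD, n = 3 each; log2 fold change -1.43, limma adjusted p = 1.87e-08). MYC (log2 fold change -0.99) and the repressor IRF2 (-0.98) fell, and SOCS1, a feedback inhibitor of JAK kinases, rose (1.42). SOCS1 was below the filter's level in DMSO replicate 2. IRF1, the activator that binds the CD274 promoter in interferon-treated cells, had 25.4 ± 0.465 FPKM in BRQ and 40.7 ± 2.49 FPKM in DMSO (SD, n = 3 each). CMTM6, which protects PD-L1 from lysosomal breakdown, had 48.7 ± 0.734 FPKM in BRQ and 31.8 ± 0.995 FPKM in DMSO (log2 fold change 0.61). CMTM4, of the same list, went the other way, with 6.25 ± 0.545 FPKM in BRQ and 10.8 ± 0.711 FPKM in DMSO (log2 fold change -0.75). IRF1, CMTM6 and CMTM4 were picked once their values were known.

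Of 20 reported regulators of NKG2D ligand genes 4 rose (all genes tested: 44.3%), 13 fell (35.4%) and 3 were not called (median -0.39). The endoplasmic reticulum stress sensor ERN1 (log2 fold change -2.06), its target XBP1 (-1.38), the microRNA-processing enzyme DICER1 (-1.29) and the receptor EGFR (-1.26) changed most. The heat shock factor HSF1 had 30.5 ± 1.33 FPKM in BRQ and 40.9 ± 1.83 FPKM in DMSO (SD, n = 3 each), and the kinases ATM and ATR of the DNA damage response had log2 fold changes of -0.69 and -0.73; these 3 were named after their values were seen. Whether any of these levels bears on the ligand genes was not tested.

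The shedding list holds proteases that release ligands from the surface, their partners and inhibitors. Of 12 tested genes 6 rose (all genes tested: 44.3%) and 6 were not called (median of the list 0.24). Of these 12, 3 were called lower under trimmed-mean scaling and 3 under quantile normalization. Of the 6 that rose, MMP9 and the inhibitor TIMP3 had under 0.5 FPKM in every DMSO library. They passed the filter through BRQ alone, so they had to differ. The matrix protease gene MMP7 had 10.7 ± 0.738 FPKM in BRQ and 2.45 ± 0.371 FPKM in DMSO (SD, n = 3 each). MMP2 (log2 fold change 0.85), the disulfide isomerase PDIA6, which aids MICA shedding (0.50), and the inhibitor TIMP2 (0.37) rose too. The main sheddases ADAM10 and ADAM17 were not called, although ADAM17 was among the genes called lower under trimmed-mean scaling (limma adjusted p = 0.0134) and quantile normalization (0.0388). ADAM10 had 17.0 ± 0.470 FPKM in BRQ and 17.3 ± 0.202 FPKM in DMSO (95% interval of the log2 fold change -0.12 to 0.07), and ADAM17 had 26.5 ± 0.302 FPKM in BRQ and 27.3 ± 0.730 FPKM in DMSO (-0.13 to 0.04; SD, n = 3 each), with every BRQ library below every DMSO library for ADAM17; both were named after their values were seen.

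All 12 genes of the CD47 list were called (all genes tested: 79.7%), 7 higher (44.3%) and 5 lower (35.4%), with a median of 0.21. Of the 7, PTPN11 (log2 fold change 0.13) was no longer called under trimmed-mean scaling (limma adjusted p = 0.0821) or quantile normalization (0.351). PTPN11 was named after its values were seen. THBS1, a secreted partner of CD47 (log2 fold change 1.26), CALR, a signal for engulfment when it reaches the surface (445 ± 18.9 FPKM in BRQ and 188 ± 2.52 FPKM in DMSO, SD, n = 3 each), and its receptor LRP1 (1.05) rose, and GAS6, a bridge to phagocyte receptors, fell (-1.41). CD24, which signals to macrophages through Siglec-10, had 103 ± 4.02 FPKM in BRQ and 173 ± 3.997 FPKM in DMSO, opposite in direction to CD47; it was named after its values were seen.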

How the data were processed

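RNA-seq of 3 BRQ and 3 DMSO libraries of A549 was used, grouped by the treatment label. The authors deposited FPKM per gene, that is, fragment counts scaled to gene length and library total. HTSeq, fastp and the genome build hg38 were used, per the submitters' processing notes. The aligner, the annotation, the tool versions and whether counting used strand are items not given in the sources used here. Whole reads were recovered from the steps between FPKM values for 15905 of 15905 genes with at least 3 nonzero libraries (within 0.01 read), which gave totals of 27789225 to 34908895 reads and served an alternative fit only.

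Genes with at least 0.5 FPKM in 3 libraries were compared between BRQ and DMSO on log2(FPKM + 0.5) by the moderated test of limma 3.58.1, with trend, in R 4.3.3, adjusted over 12258 genes at a threshold of 0.05. The limma fit, limma-voom and trimmed-mean scaling were run on simulated data. Far fewer genes changed there than were called here, so that run does not cover this setting. Sums and ratios within a library were compared by exact permutation in Python 3.11.15. The 15 alternatives were other pseudocounts (0.1 and 1), filters on low values, trimmed-mean and quantile scaling, limma-voom on recovered reads, no intensity trend, the replicate number as a block, and each library left out. Promoter sequences came from RefSeq (GRCh38.p14), transcript windows and overlaps from GENCODE release 29.

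The members and lists were chosen with earlier results of these data known. In each related list, up to 4 called genes with the largest absolute log2 fold change and a mean of at least 1 FPKM were named, and for CD274 and the called member with the largest change the 3 nearest profiles, of which 1 is not reported here; other genes are said to be named after their values were seen.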

Additional observations from a re-analysis of the deposited data

How the results depend on the processing

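Over the 15 alternatives no member changed direction, and 7 members were called higher under every leave-one-out fit. Under trimmed-mean scaling 3 members were called lower, under quantile normalization 3, under limma-voom 2 and on leaving out 1 library 1 to 2, against 1 as reported. Under trimmed-mean scaling the log2 fold changes were 0.080 for CD276, -0.16 for PVR and -0.27 for ULBP3; under quantile normalization they were 0.10, -0.17 and -0.28; under limma-voom PVR had -0.086. On leaving out 1 library PVR ran from -0.12 to -0.050 and ULBP3 from -0.30 to -0.14. Of the shedding list, 3 genes were called lower under trimmed-mean scaling and 3 under quantile normalization, against 0 as reported (0 at an unadjusted p under 0.05 in limma, and 0 by limma-voom). The causes were not tested. The replicate numbers did not pair the samples (correlations of same-numbered deviations -0.0378 to -0.0083, and no library correlated best with its own number), and with the replicate number as a block 7 members were higher and 1 lower. With 3 libraries a group the median SE over genes tested was 0.07 on the log2 scale, and ULBP3, the least abundant member, rested on 308 to 406 reads per library.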

Other observations

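Genes on a list of immune receptors and an adaptor, not all of them for these ligands, were mostly at the floor in both groups. Of these 16 genes 13 were in the table and 4 passed the filter, all of them called higher (all genes tested: 44.3%). Among the 4 only SIRPA encodes a receptor of a member, and the others are HCST, HAVCR2 and CD8A. HCST and HAVCR2, which encodes TIM-3, passed through BRQ alone and so had to differ. PDCD1, which encodes PD-1, reached at most 0.0282 FPKM and TIGIT at most 0.00965 FPKM in any library. SIRPA, the CD47 receptor of macrophages, had 11.8 ± 0.486 FPKM in BRQ and 10.4 ± 0.918 FPKM in DMSO (SD, n = 3 each; log2 fold change 0.18, limma adjusted p = 0.0302, and 0.00621 to 0.168 over the alternatives). HCST, which encodes the signalling adaptor of NKG2D, had 1.14, 1.53 and 0.977 FPKM in BRQ, against 0.0847, 0 and 0.0825 FPKM in DMSO, and CD8A, which encodes a T cell co-receptor chain, had 2.24, 2.04 and 2.58 FPKM in BRQ, against 1.79, 1.22 and 1.71 FPKM in DMSO. Under quantile normalization CD8A (limma adjusted p = 0.0837) and HAVCR2 (0.167) were no longer called. All genes of this list were named after their values were seen.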
